A study of Mus musculus with 12 samples.

Results

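F4/80lo and F4/80hi macrophages (Mϕ) were compared with each other in mice given CIII (compound III), which inhibits mPGES-1, the inducible synthase of prostaglandin E2 encoded by Ptges. The comparison used 6 of the 12 libraries of the series, 3 of F4/80lo Mϕ and 3 of F4/80hi Mϕ, chosen by the subpopulation and treatment that their labels give. All mice were female C57BL/6 animals between 8 and 12 weeks of age and received zymosan, a yeast cell wall preparation, at 5 mg/kg into the peritoneum. CIII at 25 mg/kg was injected intraperitoneally each day from day 1, and the peritoneal cavity was lavaged at day 6. The other 6 libraries, 3 per subpopulation, came from zymosan-injected mice that had the vehicle (VEH) in place of CIII and serve here for a comparison only. No source used here says whether the cells of several mice were pooled for a library, or whether the F4/80lo Mϕ and F4/80hi Mϕ of a replicate number came from the same mouse. Cells were sorted as CD45+ CD11b+ events after CD11c+ MHC class II+ events had been gated away. F4/80hi Mϕ were those with high F4/80 and MerTK. From the events low in both, Ly6G+ cells were removed, and F4/80lo Mϕ were those with MHC class II, called high in the labels and positive in the study's gating scheme. F4/80, MerTK and MHC class II set the subpopulations apart, and Ly6G was gated for F4/80lo Mϕ only. The transcripts of these antigens therefore describe the sort and are no finding. The gates on CD45, CD11b and CD11c were the same for both subpopulations. Sorted fractions are mixtures, and a larger share of cells that carry a transcript cannot be told apart from more of it per cell.

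Resident Mϕ of the peritoneal cavity carry much F4/80 and little MHC class II, depend on the transcription factor GATA6 and maintain themselves largely by division in place. Inflammation recruits blood monocytes, which enter through the chemokine receptor CCR2 and become Mϕ with little F4/80 and much MHC class II. During resolution both kinds of Mϕ clear dead cells and debris, and lipid mediators made from arachidonic acid, prostaglandin E2 among them, act on both.

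Each library counted 3′ ends of mRNA, with unique molecular identifiers, and levels are given as reads per 1000000 (RPM) after trimmed-mean (TMM) scaling of the 6 libraries together. Values of F4/80lo Mϕ and F4/80hi Mϕ are listed in the order of replicate numbers 1, 2 and 3. The CIII libraries held 426624 to 1743889 reads on genes. A library without a read of a gene leaves room for 3 reads, or 1.72 to 7.03 reads per 1000000 before TMM scaling. This floor covers counting error only. Libraries numbered 3 stood apart: Gm42418 took 2.65% of the reads of F4/80lo Mϕ and 2.86% of those of F4/80hi Mϕ number 3, and at most 0.579% of the other 4. Among the VEH libraries it took 14.3% and 7.82% of the reads of these subpopulations in number 3, and at most 0.349% of the other 4. Genes with a mean of at least 5 RPM were tested with limma on log2(RPM + 2), a scale that understates the differences of weak genes. "Called" means a Benjamini-Hochberg adjusted p under 0.05 over all genes tested. Same-numbered libraries of the subpopulations deviated together, so counts of calls over all genes are given for a plain fit and for one that takes the replicate number as a block, and those of gene lists with the block. Without it the lists held 2 calls, Marco, lower, which is a resident and an efferocytosis gene, and Tmem176b, higher, of the monocyte-derived list. Unless the plain fit is named, single adjusted p-values are those with the block, and standard errors (SE) are those of the same fit. With 3 libraries on each side the smallest exact permutation p, two-sided, is 0.1. The study describes its data in general as coming from independent experiments, but the labels do not tie each library to its own mouse or experiment, so the p-values measure the spread between these libraries, which may in part be technical.

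Of the 9725 genes tested, limma without the block called 2 (0.0206%), 1 in each direction (0.0103% each). Marco (ENSMUSG00000026390, GRCm38 chromosome 1 from 120474538 to 120505024), a scavenger receptor for bacteria and particles, was lower in F4/80lo Mϕ, and Tmem176b (ENSMUSG00000029810, GRCm38 chromosome 6 from 48833818 to 48841496), a membrane protein of antigen-presenting myeloid cells, was higher. Marco measured 55.7, 22.3 and 45.8 RPM in F4/80lo Mϕ and 617, 532 and 413 in F4/80hi Mϕ. Tmem176b measured 397, 345 and 295 against 40.01, 44.01 and 62.3. The subpopulations did not overlap in either gene. Their means were 41.2 ± 17.2 and 521 ± 102 for Marco and 346 ± 51.3 and 48.8 ± 11.9 for Tmem176b (± SD, n = 3 each). The log2 difference, F4/80lo Mϕ minus F4/80hi Mϕ, was -3.67 for Marco (SE 0.39, limma adjusted p = 0.0108 in the plain fit) and 2.79 for Tmem176b (SE 0.33, adjusted p = 0.0159 in the plain fit), and the exact permutation p was 0.1 for each.

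With the replicate number as a block 233 genes were called (2.4%), 89 higher (0.915%) and 144 lower (1.48%) in F4/80lo Mϕ. In 160 of the 233 the subpopulations did not overlap, as they did not in 11.8% of all genes tested (4.9% higher and 6.89% lower in F4/80lo Mϕ). The edgeR quasi-likelihood test gave 2 calls without the block (0.0206%, 0.0103% in each direction) and 257 with it (2.64%, 0.977% higher and 1.67% lower), and 229 of the 233 were among the latter. Unadjusted p-values under 0.05 were reached by 603 genes in the plain fit (6.2%). Without the libraries numbered 3 the plain fit called 50 genes and the blocked fit 602. The median difference over all genes tested was -0.06. In the plot of difference against level Ffar2 and Itgax lie near the top and Cd5l, Marco and Gpnmb near the bottom.

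**Figure D1:**
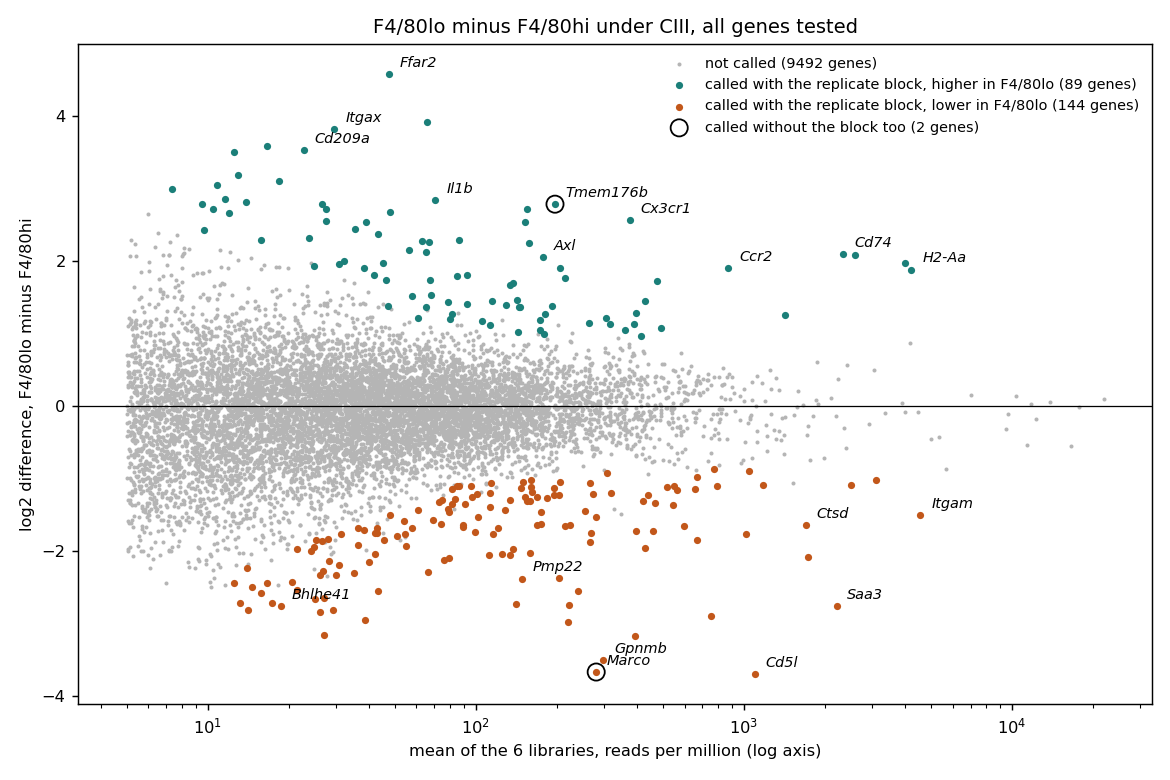
Log2 difference, F4/80lo minus F4/80hi Mϕ under CIII, against the mean of the 6 libraries in RPM (log axis), with 1 point per gene tested. Coloured points are the 233 genes called with the replicate block, 89 higher and 144 lower, grey points the 9492 others, and rings mark Marco and Tmem176b, called without the block too.

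The libraries were read against their labels first. Of the 6 markers that stand for the subpopulations, 5 were called in the labelled direction with the block and 0 without it. Of all genes, 0.915% were called higher and 1.48% lower with the block. Adgre1, which encodes F4/80, measured 373, 245 and 198 RPM in F4/80lo Mϕ and 1171, 1186 and 408 in F4/80hi Mϕ (adjusted p = 0.000466). Gata6 was weak, at 0.752, 4.45 and 1.12 against 23.7, 38.7 and 6.36 (adjusted p = 0.0445). Both were lower in all F4/80lo Mϕ libraries, and in F4/80hi Mϕ number 3 both sat closest to the F4/80lo Mϕ level. Timd4, the phosphatidylserine receptor TIM-4 of resident Mϕ, measured 132, 77.9 and 118 against 207, 77.4 and 161, its groups overlapped, and it was not called (log2 difference -0.36, SE 0.27, adjusted p = 0.586). In these libraries Timd4 did not set the F4/80hi sort apart.

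Among the markers of recruited cells, Ccr2 measured 1283, 537 and 2204 RPM in F4/80lo Mϕ and 313, 116 and 781 in F4/80hi Mϕ. Its groups overlapped, since the level in number 2 was low and in number 3 high in both subpopulations, while within each number F4/80lo Mϕ were higher (log2 difference 1.90, SE 0.23, adjusted p = 3.64e-05, and 0.644 in the plain fit). Cx3cr1, the receptor of fractalkine, measured 814, 757 and 340.3 against 75.9, 64.02 and 196 with no overlap (log2 difference 2.57, SE 0.36, adjusted p = 0.000183). Of the 9 transcripts of sorted antigens, 8 were tested. With the block 4 were higher, 2 lower and 2 not called, where 0.915% of all genes were called higher and 1.48% lower. Itgam (CD11b) was lower in F4/80lo Mϕ at 2893, 1966 and 2022 against 9651, 6817 and 3947 (adjusted p = 0.00326). Mertk, whose protein was a criterion of the sort, measured 244, 428 and 282 against 367, 428 and 366, and its groups overlapped (log2 difference -0.32, adjusted p = 0.579). Ptprc (CD45) was not called either (adjusted p = 0.451).

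**Figure D2:**
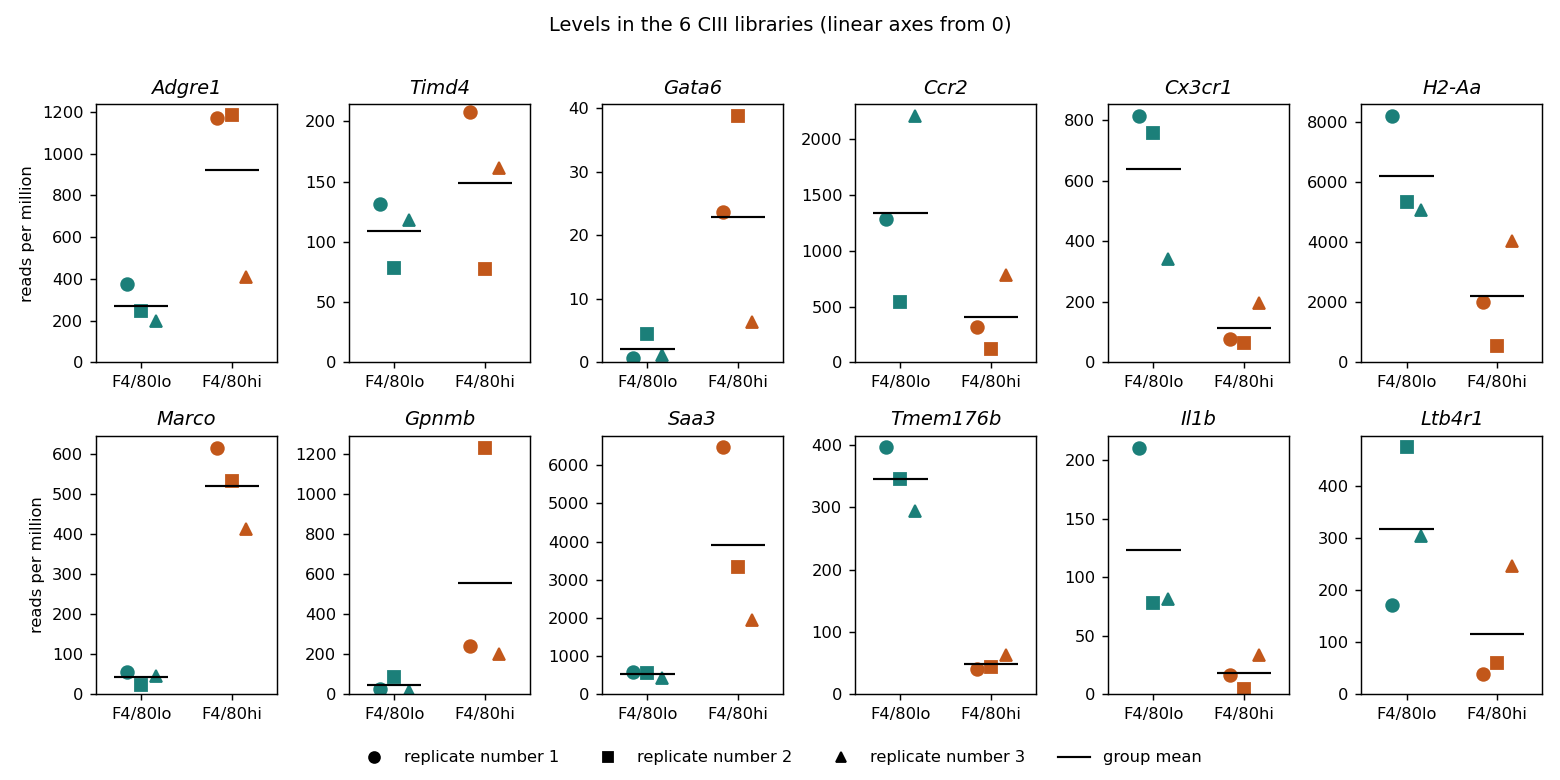
Levels of the 6 label markers (top) and of 6 other genes (bottom) in the 6 CIII libraries, in RPM on linear axes from 0, with replicate numbers as symbols and group means as lines. Timd4, Ccr2 and Ltb4r1 overlap between the subpopulations, the other 9 genes do not, and number 3 of F4/80hi Mϕ lies nearest to the F4/80lo levels in every panel but that of Timd4.

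Among genes of resident peritoneal Mϕ the calls went one way, lower in F4/80lo Mϕ. All 30 genes of the list were tested, 29 had a difference below 0, and 15 were called lower and 0 higher with the block, where 1.48% of all genes were called lower. The median log2 difference was -1.47, against -0.06 over all genes tested. Within replicate numbers 1, 2 and 3 it was -2.31, -1.43 and -0.53, so it was smallest in number 3. The plot of list medians by replicate number shows the same narrowing for MHC class II and cell cycle genes.

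**Figure D3:**
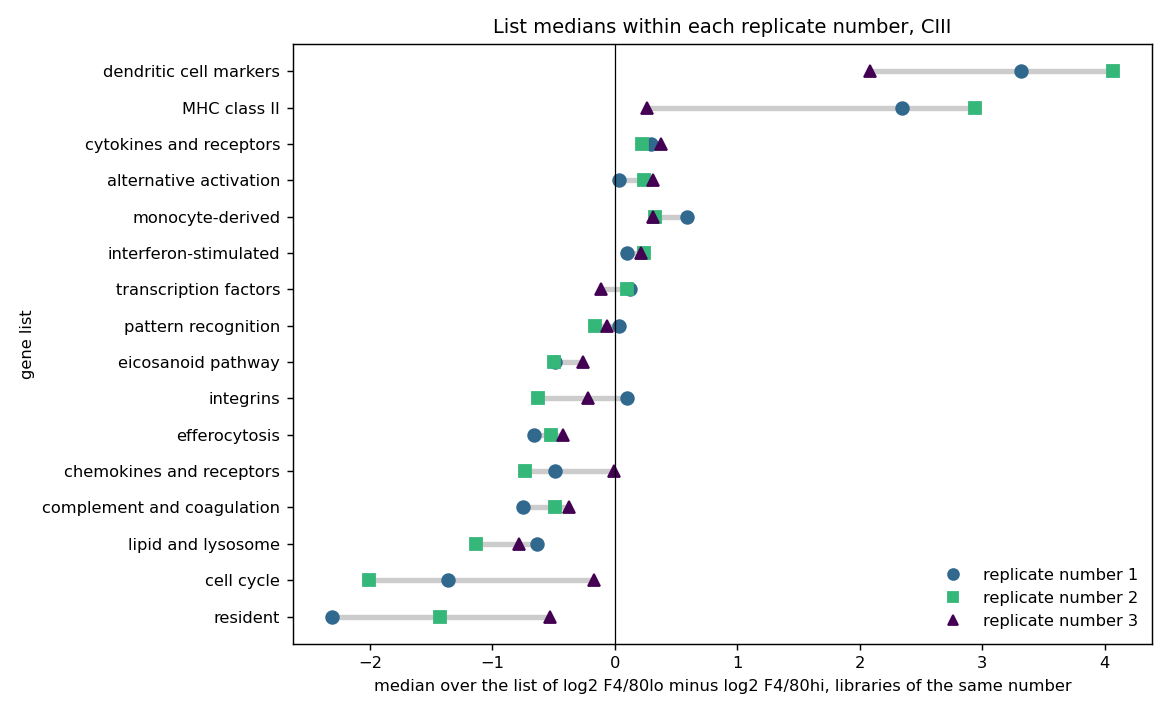
Median log2 difference, F4/80lo minus F4/80hi Mϕ under CIII, over the tested members of each gene list, computed between the libraries of the same replicate number. For MHC class II, cell cycle and resident genes number 3 lies nearest to 0, at 0.26, -0.17 and -0.53, while the lipid and lysosome list stays between -0.64 and -1.13.

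Of the 8 surface receptors on the resident list 6 were lower. Beside Marco and Adgre1 these were Icam2, an adhesion molecule and usual marker of large peritoneal Mϕ (33.1, 37.9 and 54.7 against 156, 172 and 85.2, log2 difference -1.64, adjusted p = 0.00669), Cd93, a receptor linked to the uptake of apoptotic cells (log2 difference -1.30, adjusted p = 0.00403), Lyve1, a hyaluronan receptor (log2 difference -2.28, adjusted p = 0.00567), and Selp, the adhesion molecule P-selectin (log2 difference -1.53, adjusted p = 0.0308). Lyve1 and Selp overlapped between the subpopulations. Of the 5 transcription factors only Gata6 was called. Cebpb did not overlap, at 551, 688 and 520.0 against 1013, 1147 and 914, and missed the threshold (adjusted p = 0.0679). Rarb, the retinoic acid receptor beta, had a log2 difference of 0.01 (adjusted p = 0.997).

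Of the 9 secreted or matrix proteins 3 were lower. Saa3, an acute-phase serum amyloid, measured 585, 561 and 405 RPM in F4/80lo Mϕ and 6468, 3326 and 1938 in F4/80hi Mϕ (log2 difference -2.76, SE 0.26, adjusted p = 9.55e-07). Every F4/80hi Mϕ library lay above every F4/80lo Mϕ library by a wide margin, although the F4/80hi Mϕ level itself ranged widely. Serpinb2, an inhibitor of plasminogen activators, measured 39.9, 31.2 and 4.46 against 626, 611 and 9.54 (log2 difference -2.98, adjusted p = 0.000489). Serpinb2 was abundant in F4/80hi Mϕ 1 and 2 and nearly absent in number 3. Prg4 (lubricin) measured 36.9, 336 and 56.9 against 795, 842 and 23.5 and was not called (adjusted p = 0.199). Thbs1 was called as well (log2 difference -1.74, adjusted p = 0.00227), as was coagulation factor F5 (115, 134 and 62.5 against 514, 640.2 and 59.8, adjusted p = 0.0208).

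Enzymes and other members of the resident list gave 4 calls of 6, all lower. Hal, which breaks down histidine, measured 54.9, 77.9 and 25.7 against 230.3, 204 and 101 (adjusted p = 0.000859), and the tetraspanin Cd9 25.6, 84.6 and 52.4 against 185, 522 and 87.1 (adjusted p = 0.00122). Naip1, a sensor of the inflammasome, and Aspa, an aspartoacylase, were the other two (adjusted p = 0.0152 and 0.0177). Alox15, the 12/15-lipoxygenase of resident Mϕ that makes precursors of resolving lipid mediators, measured 29.3, 454 and 26.8 in F4/80lo Mϕ and 730.1, 706 and 13.4 in F4/80hi Mϕ. Number 2 of F4/80lo Mϕ held much Alox15 and number 3 of F4/80hi Mϕ hardly any, and the gene was not called (log2 difference -1.42, SE 0.56, adjusted p = 0.233).

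Over all genes, list members or not, the smallest p-values with the block among lower genes belonged to Cd5l, Marco, Gpnmb, Spp1, Saa3, Slpi, Serpinb6a, Fcna and Pmp22, among others, which were picked after their values were seen. Cd5l, a secreted apoptosis inhibitor of tissue Mϕ, measured 274, 140.3 and 33.5 against 2768, 3019.7 and 361 (log2 difference -3.70, adjusted p = 1.13e-08). Spp1 (osteopontin) measured 49.6, 105 and 18.97 against 323, 1711 and 150.1 (log2 difference -3.17), and Slpi, a protease inhibitor, 187, 183 and 50.2 against 2024, 1902 and 189 (log2 difference -2.89). All 3 were lower within each replicate number and did not overlap. By the plain fit's p, the genes after Marco were Pmp22, Serpinb6a, Saa3, Gprc5b, Kif3a, Timp2, Rilpl2, Itsn1 and Gpnmb, with plain adjusted p-values of 0.0638 to 0.227 and blocked values of 4.32e-08 to 0.00423. Timp2, an inhibitor of matrix metalloproteinases, measured 456, 367 and 579 against 1451, 1529.8 and 1740.2.

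On the higher side of the plain fit's order, Tmem176b was followed by Itgax, Ffar2, Bcl11a, Dpp4, Olfm1, Cx3cr1, Napsa, Cd209a and Klra17, none of which overlapped (plain adjusted p of 0.0638 to 0.165, blocked 1.55e-05 to 0.00423). Ffar2, the receptor for short-chain fatty acids, measured 193, 33.4 and 53.6 in F4/80lo Mϕ and 4.8997, 0 and 0 in F4/80hi Mϕ. Almost all of its reads were thus in F4/80lo Mϕ, most of them in number 1. Olfm1, a secreted olfactomedin, measured 419, 171 and 206 against 66.1, 45.3 and 41.3 (log2 difference 2.26, SE 0.27, adjusted p = 2.95e-05). Dpp4, the surface peptidase CD26, measured 50.4, 24.5 and 22.3 against 1.63, 0 and 0.636, and Klra17, a receptor of the Ly49 family, 16.5, 40.1 and 17.9 against 0, 0 and 0.636, where F4/80hi Mϕ held too few reads for a fold. Klra genes are related in sequence, and whether Klra17 shared reads with its relatives was not examined. Bcl11a, a zinc finger factor, measured 48.9, 44.5 and 54.7 against 8.98, 4.001 and 5.09 (adjusted p = 0.00196).

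Genes of monocyte-derived Mϕ gave calls for a minority. Of 29 listed 27 were tested, and 7 were higher and 0 lower with the block, against 0.915% of all genes called higher. The median of the list was 0.31. The 7 were Tmem176b, Tmem176a, Cx3cr1, Ccr2, Napsa, Mgl2 and Clec4a3. Tmem176a, which lies head to head with Tmem176b on chromosome 6, measured 495, 169 and 129 against 40.8, 20.01 and 58.5 (log2 difference 2.54, adjusted p = 0.000183). Napsa, an aspartic protease, measured 153, 95.7 and 84.8 against 20.4, 13.3 and 32.4 (adjusted p = 0.00082), and the galactose-type lectin Mgl2 48.1, 69.03 and 24.5 against 4.08, 17.3 and 1.91 (adjusted p = 0.00467). The other 20 tested members were not called. Lyz2, the lysozyme of all Mϕ, was abundant and not called (9648, 9259 and 8987 against 11726, 8315 and 10199), and the integrin Itgb7 measured 308, 232 and 398 against 203, 292 and 313 (log2 difference 0.20, SE 0.25). Ly6c2, a marker of fresh monocytes, measured 25.6, 64.6 and 69.2 against 14.7, 2.67 and 61.04 and was not called (adjusted p = 0.148). Irf4, a factor of monocyte-derived and dendritic cells, did not overlap at 60.2, 178 and 56.9 against 38.4, 32.01 and 27.98 and missed the threshold (adjusted p = 0.0557).

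MHC class II genes, which encode the molecules that present peptides to CD4 T cells, gave calls in one direction, higher in F4/80lo Mϕ. MHC class II protein was a gate, so the classical chains describe the sort. Of 11 listed 9 were tested, all 9 had a difference above 0 (as had 4431 of all 9725 genes), and 6 were called higher with the block (0.915% of all genes were). The median was 1.95 over the 6 libraries and 2.35, 2.94 and 0.26 within numbers 1, 2 and 3. H2-Aa, an alpha chain, measured 8218, 5357 and 5094 RPM in F4/80lo Mϕ and 2002, 544 and 4052 in F4/80hi Mϕ. H2-Ab1, its beta chain, measured 8198, 4059 and 5322 against 1514, 427 and 4417, and Cd74, the invariant chain, 5185, 2478 and 2739.5 against 847, 199 and 2604. In F4/80hi Mϕ number 3 each of these came close to the F4/80lo Mϕ level, and in F4/80hi Mϕ number 2 each was lowest. The adjusted p was 0.00522 for H2-Aa, 0.00364 for H2-Ab1, 0.00342 for H2-Eb1 and 0.00423 for Cd74. The peptide exchange factors H2-DMb1 (log2 difference 1.73, adjusted p = 0.00227) and H2-DMa (log2 difference 1.28, adjusted p = 0.0226) were called too. Ciita, the transactivator of the family, was not a sorted antigen. It measured 57.2, 8.91 and 131 in F4/80lo Mϕ and 16.3, 1.33 and 123 in F4/80hi Mϕ, spread more between replicate numbers than between subpopulations, and was not called (log2 difference 1.16, SE 0.44, adjusted p = 0.208).

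MHC class II promoters are known for a shared module that ends in a Y box, an inverted CCAAT element. RefSeq's promoter table for GRCm38.p6 held 9 windows for 8 of the 11 listed genes, and the letters CCAAT stood on one of the strands of the 250 bases before the start in all 8, against 33.8% of all 32851 windows searched and 35.1% of those of tested genes. The windows of H2-Aa and H2-Eb1 are shown as members that moved together, and that of Cx3cr1 as the label marker of recruited Mϕ whose levels did not overlap and that was no part of the gate. Each runs 5′ to 3′ on the strand of its gene, with CCAAT or its reverse complement ATTGG in capitals.
H2-Aa, GRCm38.p6 chr17:34287824-34288073, minus strand: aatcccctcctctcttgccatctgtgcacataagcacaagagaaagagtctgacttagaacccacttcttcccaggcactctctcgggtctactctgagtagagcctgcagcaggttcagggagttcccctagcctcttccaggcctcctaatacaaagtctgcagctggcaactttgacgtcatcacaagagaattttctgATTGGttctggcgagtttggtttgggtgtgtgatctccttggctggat
H2-Eb1, GRCm38.p6 chr17:34305617-34305866, plus strand: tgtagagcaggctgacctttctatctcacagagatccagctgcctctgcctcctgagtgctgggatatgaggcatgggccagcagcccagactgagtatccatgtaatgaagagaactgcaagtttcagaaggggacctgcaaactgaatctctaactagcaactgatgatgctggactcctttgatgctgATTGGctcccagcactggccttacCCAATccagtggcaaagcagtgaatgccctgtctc
Cx3cr1, GRCm38.p6 chr9:120068297-120068546, minus strand: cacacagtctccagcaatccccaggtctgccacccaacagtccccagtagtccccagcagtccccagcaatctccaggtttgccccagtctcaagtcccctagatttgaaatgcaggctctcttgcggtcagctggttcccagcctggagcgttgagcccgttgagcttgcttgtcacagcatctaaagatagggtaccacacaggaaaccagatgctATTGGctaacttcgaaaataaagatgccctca
The match lay 48 bases before the start in H2-Aa, 59 and 35 in H2-Eb1, and 32 in Cx3cr1, counted at its first base. It describes these letters only, and no binding was measured in these cells.

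For the lower genes the windows of Marco, Saa3 and Gpnmb are shown. They encode a scavenger receptor, a secreted protein and a glycoprotein of lysosome-rich Mϕ. All are among the 10 lower genes with the smallest blocked p. Searched on both strands were AGATAA, a core that GATA factors bind, and TTGCNNAA, a site type of C/EBP factors. Searched likewise were AGGAAGT, a site type of PU.1, and CCAAT, and none of the 4 motifs overlapped another here. In this order they stood in 9.99%, 9.56%, 7.69% and 33.8% of all windows searched, and in 5.44%, 7.55%, 8.12% and 35.1% of the 9620 windows of tested genes. Capitals mark matches.
Marco, GRCm38.p6 chr1:120505025-120505274, minus strand: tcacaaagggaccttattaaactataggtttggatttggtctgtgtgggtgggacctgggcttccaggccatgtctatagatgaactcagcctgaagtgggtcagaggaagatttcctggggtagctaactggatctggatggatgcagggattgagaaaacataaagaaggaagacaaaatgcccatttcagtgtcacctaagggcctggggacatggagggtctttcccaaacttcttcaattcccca
Saa3, GRCm38.p6 chr7:46715677-46715926, minus strand: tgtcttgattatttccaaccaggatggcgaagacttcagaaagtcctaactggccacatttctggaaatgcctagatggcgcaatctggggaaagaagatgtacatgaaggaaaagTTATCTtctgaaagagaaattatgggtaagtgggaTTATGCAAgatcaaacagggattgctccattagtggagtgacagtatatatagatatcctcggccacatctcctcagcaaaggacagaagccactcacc
Gpnmb, GRCm38.p6 chr6:49036268-49036517, plus strand: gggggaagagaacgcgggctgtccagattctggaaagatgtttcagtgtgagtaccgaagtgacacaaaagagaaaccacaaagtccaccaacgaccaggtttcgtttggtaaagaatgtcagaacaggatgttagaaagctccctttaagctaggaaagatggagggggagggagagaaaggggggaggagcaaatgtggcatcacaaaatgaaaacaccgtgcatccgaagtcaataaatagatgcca
In the window of Saa3 the reverse complement of AGATAA began 134 bases and that of TTGCNNAA 99 bases before the start. Marco and Gpnmb held none of the 4 motifs in these windows.

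Genes for the uptake of dead cells (efferocytosis) gave 1 higher and 5 lower calls among 26 tested of 30 listed, beside 0.915% and 1.48% of all genes, with a median of -0.39. Of the 6 called genes 3 belong to the TAM system. Its receptors, Axl and MerTK among them, bind phosphatidylserine through Gas6 or protein S, though not every receptor uses both. Axl was higher in F4/80lo Mϕ, at 172, 234 and 409.5 against 45.7, 24.01 and 184 (log2 difference 2.06, SE 0.32, adjusted p = 0.000504). The ligands were lower. Gas6 measured 7.52, 4.45 and 0 against 92.3, 40.01 and 5.72 (adjusted p = 0.0106) and Pros1, protein S, 162, 75.7 and 100.4 against 395, 297 and 139.9 (adjusted p = 0.017). Axl thus lay in the opposite direction to Gas6 and Pros1, and Mertk itself was not called. All 3 overlapped between the subpopulations through F4/80hi Mϕ number 3.

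None of the 6 tested phosphatidylserine receptors and bridging proteins was called, and their median was -0.37. Among scavenger receptors and opsonins Marco and Cd36 were lower. Cd36, which takes up oxidized lipid and fatty acids, measured 257, 247 and 287 RPM against 755, 576 and 675 (log2 difference -1.33, SE 0.23, adjusted p = 0.00169). All libraries of F4/80hi Mϕ held more than any of F4/80lo Mϕ. Mrc1, the mannose receptor, measured 1049, 405 and 199 in F4/80lo Mϕ and 1026, 405 and 214 in F4/80hi Mϕ, differed between replicate numbers alike in each subpopulation, and had a log2 difference of -0.02 (SE 0.23).

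The lipid and lysosome list was among those with the most calls, 10 lower and 0 higher of 23 tested of 24 listed, where 1.48% of all genes were called lower, with a median of -0.86. Within numbers 1, 2 and 3 the median was -0.64, -1.13 and -0.78, so unlike the resident list it was not smallest in number 3. Gpnmb, a glycoprotein of lysosome-rich Mϕ, measured 25.6, 86.8 and 14.5 against 238, 1227 and 199 (log2 difference -3.51, SE 0.27, adjusted p = 4.32e-08). Its level was several times higher in number 2 than in the others in both subpopulations. Abca1, which exports cholesterol, measured 104, 35.6 and 138 against 332, 215 and 223 (adjusted p = 0.00342). The fatty acid-binding proteins Fabp5 (log2 difference -2.03, adjusted p = 0.00726) and Fabp4 (log2 difference -2.12, adjusted p = 0.00404) were lower. Plin2, which coats lipid droplets, passed narrowly at 837, 713 and 637 against 1163, 1677 and 1253 (adjusted p = 0.05). Cd36 was the sixth called of the 10 tested genes that the list groups as lipid handling, Gpnmb included.

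Of 13 lysosomal hydrolases and membrane proteins, 4 were lower. The protease Ctsl measured 345, 200.4 and 296 against 1359, 1260.4 and 563 (log2 difference -1.85, SE 0.27, adjusted p = 0.00034) and Ctsd 623, 1247 and 643 against 2445, 3406 and 1834 (log2 difference -1.64, adjusted p = 0.000308). Lgmn and Ctsb followed (log2 difference -1.14 and -1.02, adjusted p = 0.00653 and 0.0383). None of these 4 overlapped. The hydrolases were not lower throughout, since Ctsz and Hexa measured log2 differences of 0.01 and 0.12 with overlapping groups.

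**Figure D4:**
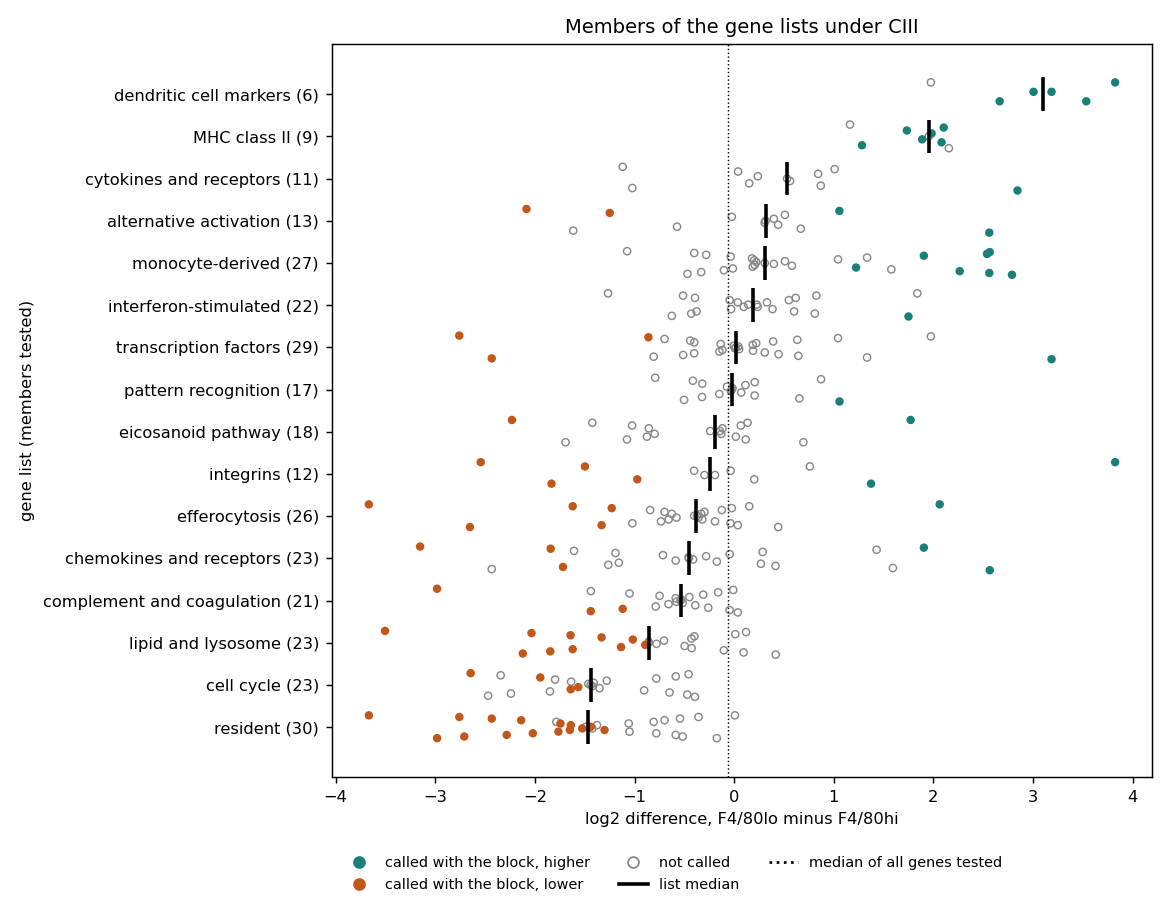
Log2 difference, F4/80lo minus F4/80hi Mϕ under CIII, of every tested member of the gene lists, filled where called with the replicate block, with black bars for list medians and a dotted line for the median of all genes tested (-0.06). MHC class II members all lie to the right of 0, cell cycle members all to the left, and 29 of the 30 resident genes to the left.

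The eicosanoid pathway, in which the inhibited enzyme sits, gave 1 call in each direction among 18 tested of 26 listed, where 0.915% of all genes were called higher and 1.48% lower, and its median was -0.19. Ptges, the target of CIII, was weak, at 1.505, 6.68 and 3.35 RPM in F4/80lo Mϕ and 8.98, 17.3 and 4.45 in F4/80hi Mϕ, and its groups overlapped (adjusted p = 0.513). Ptgs2 (cyclooxygenase-2) had 0 reads in all 6 libraries, and Ptgs1 (cyclooxygenase-1) measured 71.5, 80.2 and 172 against 153, 173 and 237 without a call (adjusted p = 0.0946). Of the prostaglandin E2 receptors, Ptger4 (72.97, 66.8 and 66.95 against 48.2, 65.4 and 77.6) and Ptger2 (15.8, 31.2 and 29.01 against 22.9, 16.01 and 37.5) had log2 differences of 0.13 (SE 0.31) and 0.02 (SE 0.44), while Ptger1 and Ptger3 had 0 reads.

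Prostaglandin D2 and leukotriene genes held the calls. Hpgds, the hematopoietic prostaglandin D synthase, was lower in F4/80lo Mϕ, at 6.02, 4.45 and 1.12 against 17.1, 25.3 and 29.9 (log2 difference -2.23, adjusted p = 0.0489). Ltb4r1, the leukotriene B4 receptor, was higher, at 172, 474 and 304 against 39.2, 60.02 and 246 (log2 difference 1.77, SE 0.34, adjusted p = 0.00509), although its groups overlapped through number 3 of F4/80hi Mϕ. The enzymes upstream of leukotriene B4 were not called: Alox5 measured 114, 57.9 and 24.5 against 120.0, 157 and 47.7, and Lta4h 50.4, 35.6 and 69.2 against 71.9, 53.4 and 54.7. Alox5ap, the abundant 5-lipoxygenase-activating protein, measured 1651, 1728 and 1079 against 1439, 1747 and 1564. Ptgir, the prostacyclin receptor, did not overlap, at 43.6, 48.99 and 56.9 against 83.3, 107 and 85.8, and was not called (adjusted p = 0.174).

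Chemokines and their receptors gave 2 higher calls, Cx3cr1 and Ccr2, and 3 lower among 23 tested of 38 listed, set against 0.915% and 1.48% of all genes. The lower ones were ligands. Ccl8, a ligand of CC receptors, measured 13.5, 0 and 1.12 against 66.96, 12.004 and 68.7 (log2 difference -3.15, adjusted p = 0.00305). The neutrophil attractant Cxcl2 measured 15.8, 22.3 and 10.04 against 97.99, 105 and 20.3 (adjusted p = 0.0167). Pf4 (platelet factor 4) measured 172, 352 and 7.81 against 800.3, 1022 and 24.2 and was lower in F4/80lo Mϕ within each number, on levels that differed far more between numbers (adjusted p = 0.000466, and 0.925 in the plain fit). Ccl3 (3.01, 0 and 0 against 11.4, 17.3 and 10.2) and Ccl5 (33.9, 73.5 and 20.1 against 9.799, 10.7 and 18.4) did not overlap, and neither was called (adjusted p = 0.0813 and 0.155). Cx3cl1, the ligand of CX3CR1, had 0 reads in the 6 libraries.

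Integrins, the adhesion receptors made of an alpha and a beta chain, gave 2 higher and 4 lower calls among 12 tested of 18 listed, compared with 0.915% and 1.48% over all genes. Itgax (CD11c, a gated antigen) measured 72.2, 51.2 and 46.9 against 5.72, 1.33 and 0.636 (log2 difference 3.82, adjusted p = 0.000147), and Itgal (LFA-1 alpha) 88.01, 116 and 364 against 36.7, 21.3 and 244 (adjusted p = 0.0186). On the lower side Itga6, a laminin receptor chain, measured 40.6, 66.8 and 37.9 against 505, 734 and 60.4 (log2 difference -2.54, SE 0.39, adjusted p = 0.000504). Its partner Itgb1 measured 489.7, 349.6 and 524 against 817, 1006 and 832 (adjusted p = 0.0308), and Itga9 was also lower (adjusted p = 0.0383). Itgam was the fourth. Itgb2, the beta chain shared by CD11b, CD11c and LFA-1, was not called (1541, 1015 and 1929 against 2401, 1902 and 1527, adjusted p = 0.529).

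Complement and coagulation genes gave 0 higher and 3 lower calls among 21 tested of 27 listed, beside 0.915% and 1.48% of all genes, and their median was -0.54, against -0.06 over all genes tested. Of these, Serpinb2 and F5, are also on the resident list, and the third was Cfb, complement factor B (102, 22.3 and 156 against 199, 44.01 and 441, adjusted p = 0.0281). The abundant C1q chains were split: C1qa measured 1819.7, 2309 and 1693 against 2653, 3042 and 2943 without overlap, C1qb 2219.9, 2169 and 1281 against 2216, 2301 and 1120.3, and none of the chains was called.

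Among 29 tested of 32 listed transcription factors, 1 was higher and 3 were lower with the block, as were 0.915% and 1.48% of all genes. Zbtb46, a zinc finger factor of dendritic cells, was higher in F4/80lo Mϕ (27.1, 42.3 and 6.695 against 0.817, 0 and 0.636, adjusted p = 0.0132). Bhlhe41, a bHLH repressor, measured 4.51, 0 and 4.46 against 8.98, 40.01 and 54.7 (log2 difference -2.76, adjusted p = 0.0229), and Gata6, described above, was lower as well. The general Mϕ factors Spi1 (PU.1), Cebpa and Klf4 measured log2 differences of 0.22, 0.05 and 0.04, and Irf8 of 0.19. None of the 6 tested nuclear receptors was called.

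Genes of alternative activation gave calls in both directions, where 0.915% of all genes were called higher and 1.48% lower. Of 13 tested, 2 were higher, Mgl2 and the beta-glucan receptor Clec7a, and 2 lower, Folr2 among them. Folr2, a folate receptor, measured 193, 71.3 and 31.2 against 357, 149 and 116 (adjusted p = 0.0143), and Clec7a, which binds the zymosan component beta-glucan, 179, 234 and 267 against 56.3, 105 and 202 (adjusted p = 0.0398). Chil3 and Retnla overlapped widely and were not called (adjusted p = 0.477 and 0.567).

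The pattern recognition, cytokine and interferon lists gave 1 higher call each, where 0.915% of all genes were called higher. Clec7a was the single call among 17 pattern recognition genes, and the Toll-like receptors Tlr2 and Tlr4 had log2 differences of -0.50 and -0.41 (adjusted p = 0.447 and 0.556). Among 11 tested cytokines and receptors only Il1b, interleukin-1 beta, was called. It was higher in F4/80lo Mϕ, at 211, 77.9 and 81.5 against 16.3, 4.001 and 33.1 (log2 difference 2.84, SE 0.43, adjusted p = 0.000466). Tnf was weak and overlapped (5.27, 24.5 and 6.695 against 2.45, 12.004 and 6.36), and Csf1r, the receptor that keeps Mϕ alive, was not called (1566, 1305 and 1209.6 against 1296, 1122 and 1037, log2 difference 0.24). Interferon-stimulated genes gave 1 call of 22, Gbp4, an inducible GTPase (78.99, 8.91 and 116 against 26.9, 0 and 45.8, adjusted p = 0.0345). Iigp1, another of these GTPases, differed more between replicate numbers than between subpopulations, at 121, 13.4 and 449 against 174, 0 and 433.

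All 23 genes of DNA replication and mitosis had differences below 0, as had 5294 of all 9725 genes, and 4 were called lower with the block, beside 1.48% of all genes. Their median was -1.44, with -1.36, -2.01 and -0.17 within numbers 1, 2 and 3. Mki67, which encodes the proliferation marker Ki-67, measured 12.8, 6.68 and 6.695 in F4/80lo Mϕ and 35.9, 64.02 and 23.5 in F4/80hi Mϕ (log2 difference -1.95, SE 0.49, adjusted p = 0.0339). Top2a measured 138, 31.2 and 89.3 against 252, 372 and 133 (adjusted p = 0.0206), Birc5 (survivin) 36.1, 37.9 and 12.3 against 114, 193 and 22.9 (adjusted p = 0.0196), and Rrm1, a subunit of ribonucleotide reductase, 19.6, 2.23 and 1.12 against 66.96, 58.7 and 14.6 (adjusted p = 0.00726). In all 4 the level of F4/80hi Mϕ number 3 lay below numbers 1 and 2. The minichromosome maintenance genes Mcm2 to Mcm7 were not called, with log2 differences of -1.80 (Mcm6) to -0.46 (Mcm7).

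Markers of other cells were counted beside these results. Dendritic cell markers moved with F4/80lo Mϕ: of 11 listed 6 were tested, all 6 were above 0, as were 4431 of all 9725 genes, and 5 (Itgax, Cd209a, Zbtb46, Btla and Flt3) were called higher with the block, beside 0.915% of all genes. These 5 averaged under 5 RPM in F4/80hi Mϕ, so they passed the filter only through F4/80lo Mϕ. The filter thus favours a higher direction, and these counts carry no weight of their own. Their summed level was 131 to 258 RPM in F4/80lo Mϕ and 2.67 to 38.1 in F4/80hi Mϕ. Cd209a, a lectin of monocyte-derived dendritic cells, measured 53.4, 64.6 and 14.5 against 2.45, 1.33 and 0.636 (adjusted p = 0.00116). Flt3, the growth factor receptor of dendritic cell precursors, measured 30.8, 33.4 and 3.35 against 4.08, 0 and 0 (adjusted p = 0.0444), and Btla 19.6, 15.6 and 8.93 against 0 in each F4/80hi Mϕ library (adjusted p = 0.0226). Because Btla had no read in F4/80hi Mϕ, the list's median is 3.10 as fitted and 3.36 with Btla set to its bound of 3 reads over the group. Markers of type 1 conventional and plasmacytoid dendritic cells were at or near 0, with at most 4 reads of Xcr1, 3 of Clec9a, 2 of Itgae and 3 of Siglech in any library. The part of dendritic cells in the differences of Itgax, Zbtb46, Ccr2 and the MHC class II genes was not tested.

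B cell markers gave 1 call, higher, where 0.915% of all genes were called higher with the block. Ighm, the immunoglobulin mu chain, measured 117, 69.03 and 24.5 against 44.1, 9.34 and 5.09 (adjusted p = 0.00947). Of the 3 B cell markers tested, the other 2, Ebf1 and Igkc, had differences below 0 and were not called, and the median of the 3 was -0.47. Summed over the 11 B cell markers the level was 33.5 to 322 in F4/80lo Mϕ and 21.6 to 102 in F4/80hi Mϕ, highest in F4/80lo Mϕ number 1, while Ms4a1, which encodes CD20, had at most 15 reads in any library. The 12 T and NK cell markers summed to 25.7 to 71.3 against 5.09 to 17.3, with 1 tested and 0 called. The 13 neutrophil markers summed to 36.1 to 53.4 against 41.3 to 62.1, and Camp, Ngp and Mpo were at 0 in all 6. Eosinophil and mast cell markers reached at most 3.01 RPM in sum, and all 8 mesothelial markers were at 0.

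Whether the contrast was particular to CIII was asked with the VEH libraries, which share no library with it but do share the replicate numbers. Under VEH 9883 genes were tested, and limma called 0 genes without the block (390 at an unadjusted p under 0.05, 0 by edgeR) and 156 with it (1.58%), 90 higher (0.911%) and 66 lower (0.668%) in F4/80lo Mϕ. Of the 233 genes called under CIII with the block, 230 were tested under VEH, and 217 of these (94.3%) had the same direction there, as did 61.0% of all 9396 genes tested in both. Under VEH 59 of the 230 (25.7%) were called in that direction, against 1.58% of all genes tested in both. The median log2 difference of the higher genes was 1.91 under CIII and 1.68 under VEH, and that of the lower genes -1.68 and -0.87. The VEH libraries numbered 3 stood apart here too, since within VEH numbers 1, 2 and 3 the median was 2.26, 2.48 and 0.42 for the higher genes and -1.08, -1.31 and -0.24 for the lower ones. Cd5l, for example, measured 447, 801 and 18.1 RPM in VEH F4/80lo Mϕ and 2839, 3870 and 24.6 in VEH F4/80hi Mϕ, scaled over the 12 libraries. The part of number 3 in the gap between the CIII and VEH medians was not tested. The genes were chosen on their CIII values, which enlarges the first of each pair. Over all genes tested in both, Pearson's r of the log2 differences was 0.438, a description across genes that are not independent.

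**Figure D5:**
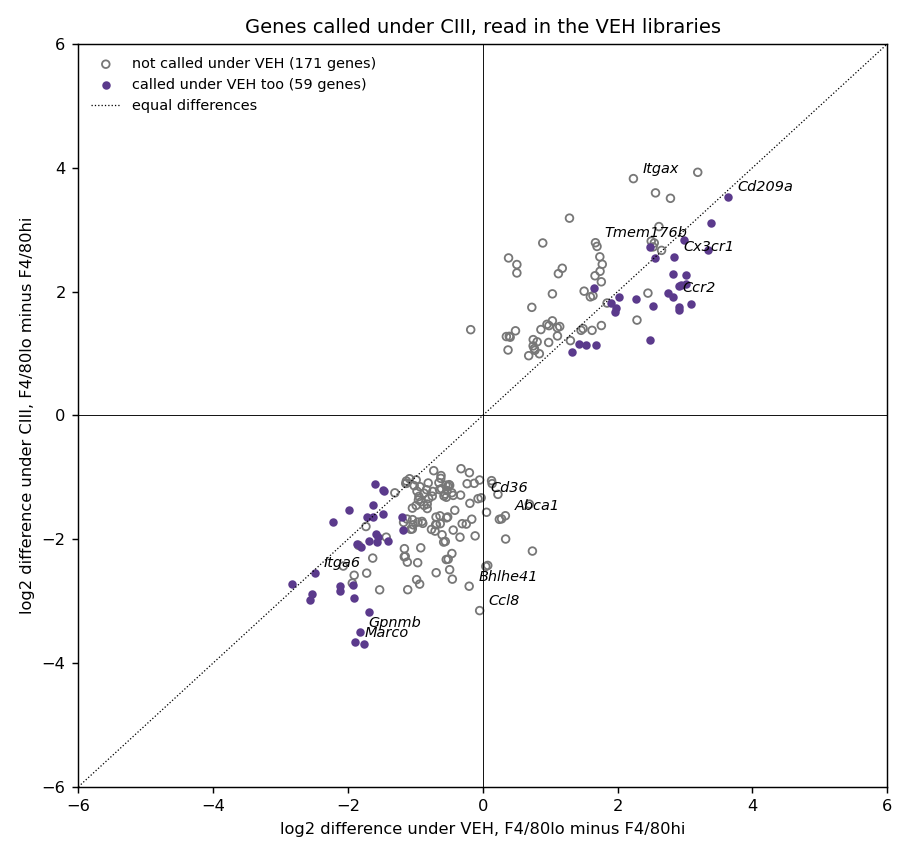
Log2 difference, F4/80lo minus F4/80hi Mϕ, under CIII (vertical axis) against VEH (horizontal axis) for the 230 genes called under CIII with the replicate block and tested under VEH. Filled points are the 59 genes also called under VEH, the dotted line marks equal differences, and 217 of the 230 points have the same sign on both axes.

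The difference between the contrasts was tested as an interaction over all 12 libraries. In 9840 genes limma called 0, with the smallest adjusted p at 0.9999 without and 0.871 with the block, and edgeR and DESeq2 called 0. Unadjusted p-values under 0.05 were reached by 170 genes (1.73%), by 552 (5.61%) with the block, and by 156 in edgeR and 187 in DESeq2. No gene of the comparison can therefore be said to differ between CIII and VEH. The estimates for the genes described above are given with that limit. Marco had a log2 difference of -3.67 under CIII and -1.89 under VEH, and the interaction estimate, CIII minus VEH, was -1.74 (SE 1.06, limma unadjusted p = 0.121 in the plain fit and 0.0379 with the block). Of 267 listed genes, markers of other cells aside, 4 had an interaction at an unadjusted p under 0.05 in the plain fit and 15 with the block, and of the 20 leading genes named by size and p 2 and 5. Those of the plain fit are given with its SE. Abca1 measured log2 differences of -1.62 under CIII and 0.33 under VEH (estimate -1.92, SE 0.79, limma unadjusted p = 0.0289, 0.00405 with the block). Cd36 measured log2 differences of -1.33 under CIII and -0.02 under VEH (estimate -1.27, SE 0.57, limma unadjusted p = 0.0442, 0.00777 with the block). Ccl8 measured log2 differences of -3.15 under CIII and -0.05 under VEH (estimate -3.07, SE 1.40, limma unadjusted p = 0.0459, 0.0164 with the block). Hpgds measured log2 differences of -2.23 under CIII and -0.46 under VEH (estimate -1.73, SE 0.79, limma unadjusted p = 0.0459, 0.0327 with the block). Kif3a measured log2 differences of -2.32 under CIII and -0.51 under VEH (estimate -1.77, SE 0.54, limma unadjusted p = 0.00527, 0.00582 with the block). Ffar2, with 4.59 under CIII, was below the filter under VEH alone (estimate 3.11, SE 1.10, limma unadjusted p = 0.0138, 0.00136 with the block). Under CIII and VEH in turn the log2 difference was 2.57 and 2.84 for Cx3cr1, 1.90 and 2.82 for Ccr2, 1.89 and 2.27 for H2-Aa, and 2.84 and 2.99 for Il1b.

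By list, resident genes had medians of -1.47 under CIII and -1.52 under VEH, and 29 of 30 had the same sign in both. MHC class II genes had 1.95 and 2.57, with 9 of 9 alike. Cell cycle genes had -1.44 and -0.51, with 22 of 23 alike, and lipid and lysosome genes -0.86 and -0.48, with 21 of 23 alike. Efferocytosis genes had -0.39 and -0.04, with 14 of 26 alike. In the plain fit an unadjusted interaction p under 0.05 was found in 0 resident, 0 MHC class II, 0 cell cycle, 2 lipid and lysosome and 2 efferocytosis genes, beside 1.73% of all genes. With the block the counts were 1, 0, 2, 2 and 7, beside 5.61%.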

How the data were processed

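Peritoneal Mϕ were sorted, RNA was extracted with the RNeasy Micro kit, and 3′ libraries (QuantSeq 3′ FWD with UMIs) were sequenced on a NextSeq 500. The authors trimmed reads with Bbduk, aligned them with STAR to GRCm38, collapsed UMIs, counted genes with HTSeq-count and divided the counts by DESeq2 size factors, so the values the authors deposited are a signal, normalized gene counts with 1 size factor per library, set separately in a table per subpopulation. Tool versions are not given in the sources used here. Whole reads were recovered from the steps of each column: 100% of values came out whole within 0.01 of a read. The 6 CIII libraries were joined by Ensembl identifier (47643 identifiers, 47224 of them paired with a symbol and 419 not) and scaled together by TMM. Columns of all 12 libraries were mapped to a sample by their labels, and 0 columns were left unused.

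Genes with a mean of at least 5 RPM over the libraries compared were tested with limma on log2(RPM + 2), with and without the replicate number as a block, and p-values were adjusted by the Benjamini-Hochberg method over all genes tested. Standard errors and adjusted p-values of single genes are from limma unless another tool is named. The difference between CIII and VEH was an interaction term over the 12 libraries, which were scaled together. Same-numbered libraries of the subpopulations deviated together, with correlations of 0.304, 0.345 and 0.515 for numbers 1, 2 and 3, whereas libraries of different numbers correlated at 0.0241 or less. Each gene was centred within its subpopulation first. Where same-numbered libraries correlate positively, this alone pushes the correlations between different numbers towards negative values. No source says what a number stands for. Alternatives changed the scaling, the pseudocount, the filter, the test (edgeR, DESeq2), the weights, the block and the libraries. The fits without number 3 that keep the block, and all alternatives of the VEH contrast, were chosen after seeing the data. The scripts were tested on simulated data.

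The comparison, the gene lists and the tests were chosen with earlier results of these data known. Named by rule were the 10 genes in each direction with the largest difference among called, non-overlapping genes with a mean of at least 20 RPM, filled by the smallest p of the plain fit, the label and gate markers, up to 4 members per role of a list, and for the interaction the 5 genes with the smallest p. Other genes named were chosen after their values were seen, and a few members of the lists are not reported here. Library totals ran from 426624 to 3389448 reads over the series, and the deeper libraries have the smaller counting error. Promoter windows are the 250 bases before the start in RefSeq's table for GRCm38.p6. Gene coordinates are those of the annotation tables on GRCm38. The software was R 4.3.3, limma 3.58.1, edgeR 4.0.16, DESeq2 1.42.0, Python 3.11.15 and matplotlib 3.10.9.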

Additional observations from a re-analysis of the deposited data

Results flagged for a closer look

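In 7 genes, picked from 294 named by rule or tested as members of the gene lists, all 3 replicate numbers differed one way under CIII and all 3 the other way under VEH. The limma interaction test called none of them (adjusted p = 0.9999 for each, 0.871 with the block), so no difference between the treatments is shown, and such a pattern of signs is reached by chance in some genes. The estimates of the interaction, CIII minus VEH on the log2 scale, were 2.10 for Jagn1, 1.77 for Gm5963, 3.21 for Haus2 and 1.73 for Orai3, and -2.96 for Zxdc. These 5 are the genes with the smallest interaction p in the plain fit (0.00132 for Jagn1 to 0.00374 for Orai3, unadjusted, limma). They are among the 294 by that rule, which favours opposite directions under CIII and VEH, so 7 of 294 is no rate. The estimate was -1.92 for Abca1, the cholesterol exporter, which had a log2 difference of -1.62 under CIII and 0.33 under VEH (unadjusted p = 0.0289 in the plain fit and 0.00405 with the block). For Stab1, a scavenger receptor that also binds phosphatidylserine, the estimate was -1.24, with -0.70 under CIII and 0.57 under VEH (unadjusted p = 0.131 in the plain fit and 0.0165 with the block). Haus2 measured 1.86 under CIII and -1.33 under VEH, and Zxdc -1.21 and 1.77.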

How the results depend on the processing

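The number of genes called under CIII depended on how the spread between replicate numbers was treated. Against 2 calls in the plain fit, the replicate block gave 233 in limma and 257 in edgeR, DESeq2 without the block 65, quality weights 139, a pseudocount of 5 RPM 4, no filter on low values 4, and a fit of all 12 libraries 0 (537 at an unadjusted p under 0.05). Without the libraries numbered 3 it was 50, and 602 with the block, a fit that leaves 1 residual degree of freedom per gene. Leaving out 1 library at a time gave 0 to 31 calls. The 31 came without F4/80hi number 3, the 0 without F4/80hi number 1 or 2, and Marco (adjusted p = 0.108 and 0.0774) and Tmem176b (0.108 and 0.104) then lost their calls in the plain fit. Tmem176b also lost it without F4/80lo number 1 or 2 (0.315 and 0.126), and both did in the fit of 12 libraries (0.355 and 0.614).

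Under VEH, where the plain fit called 0, the block gave 156 in limma and 191 in edgeR, DESeq2 12, weights 6, and the fits without number 3 gave 88, or 583 with the block. Leaving out 1 library gave 0 to 6. The interaction gave 0 calls in all 26 settings. Of the named genes' alternatives 389 kept direction and side of the threshold, 128 passed it anew, 8 lost it and 0 changed direction. Of those for list medians 371 stayed within the spread, 44 moved beyond it and 4 changed sign. The last were alternative activation (leave-one-out range -0.26 to 0.47), interferon (-0.13 to 0.61, with -0.11 without F4/80lo number 1) and the neutrophil markers (0.047 with a mean of at least 10 RPM). The T and NK cell list had no gene left at that filter. The cause of these changes was not tested.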

Other observations

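Gene families that form no list here were read after their values were seen and carry no test of their own. Of their members, the tetraspanin Cd9 is also on the resident list. Of 7 Ms4a genes tested, which encode membrane proteins of leukocytes, 3 were called higher in F4/80lo Mϕ with the block, beside 0.915% of all genes. Ms4a4c measured 85.8, 37.9 and 21.2 RPM in F4/80lo Mϕ and 5.72, 1.33 and 7.63 in F4/80hi Mϕ (log2 difference 2.79, limma adjusted p = 0.00619). Ms4a6b (1.67) and Ms4a6c (0.96) were the others, while Ms4a7 measured a log2 difference of -0.39 and Ms4a6d of -0.14. The median of the 7 was 0.96, against -0.06 over all genes tested. The Ms4a genes lie in a cluster of related copies, and reads shared between them could not be told apart here.

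Of 4 small protease inhibitors with a WAP domain, 3 were called lower, beside 1.48% of all genes. Beside Slpi these were Wfdc21 (6.77, 2.23 and 1.12 against 92.3, 48.02 and 6.99, log2 difference -2.84, limma adjusted p = 0.00726) and Wfdc17 (415, 389.7 and 102 against 1204, 804 and 175, log2 difference -1.11, limma adjusted p = 0.0106). Of 15 tetraspanins 2 were called lower, against the same 1.48%, Cd9 and Cd63, the latter a protein of lysosomes and secretory vesicles (256, 425 and 32.4 against 743, 1122 and 161, log2 difference -1.72, limma adjusted p = 0.000226). The remaining 13 were not called, and the median of the 15 was -0.65.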
